A study of Homo sapiens with 33 samples.

Results

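The genes described here encode the molecular motors of the cell: kinesins, the heavy, intermediate and light chains of cytoplasmic dynein, and myosins other than the conventional heavy chains. They were taken as every annotated gene symbol that starts with KIF followed by a digit or C, with DYNC or DYNL, or with MYO followed by a digit. The arrays carry annotated probes for 80 such genes, of 18852 annotated genes in all. A gene was tested where 1 of its probes was above background (detection p under 0.01) on every array of some group, which 55 of the 80 met, among 10038 genes tested. The 55 are 28 kinesins, 16 dynein genes and 11 myosins, and 28 of them were above background in all 11 groups. A gene that passed through 1 or a few groups had to be higher there, so no count over the 55 stands for all 80. The 25 that did not pass include KIF5A, KIF3A and KIF17, 3 kinesins known from axons and cilia, and MYO7A, MYO1E and MYO5B, and 17 of the 25 were above background on no array.

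The cells were human H9 embryonic stem cells, 1 established line, which was kept on mouse embryonic fibroblasts and moved to Matrigel for differentiation. Every group was treated with LDN-193189, which blocks receptors for bone morphogenetic proteins, together with SB431542, which blocks receptors for TGF-beta, activin and nodal, and cells given this pair alone are called LSB. LSB3i cells also received CHIR 99021, which blocks the kinase GSK3, DAPT, which blocks gamma-secretase and so Notch cleavage, and SU5402, which blocks FGF receptors. Total RNA was measured on Illumina bead arrays at days 3, 5, 7, 9 and 15 of both treatments and at day 2 of LSB, with arrays A, B and C in each group. The labels do not say whether A, B and C were separate cultures, so p-values measure the spread between these samples only, which may be technical.

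Motors walk along cytoskeletal filaments by hydrolysing ATP. Most kinesins move toward the plus ends of microtubules and dynein toward the minus ends, while myosins move on actin. In dividing cells a set of kinesins builds the spindle, moves chromosomes and closes the midbody, and in neurons, which no longer divide, another set carries vesicles, mitochondria and receptors down axons and dendrites while dynein carries cargo back to the cell body.

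Mean signal per array ranged from 298 to 872 and the number of probes above background from 9320 to 13743, both lowest on LSB day 7 array C. The LSB day 7 arrays stood apart, with a pooled residual SD of 0.822 on the log2 scale, where no other group exceeded 0.457. The A arrays of LSB3i at days 7 and 9 also stood apart from B and C, and results that rest on them are given without them. At day 15, 7 of 7 neuron markers were higher in LSB3i than in LSB, 5 of 5 neural crest markers and 3 of 4 mesenchyme and smooth muscle markers were also higher, and 5 of 5 neural progenitor, 4 of 4 epithelial and 4 of 4 pluripotency markers were lower. Of all genes, 13.3% were higher and 15.8% lower. ELAVL3, ELAVL4, NEFL, NEFM, SNAP25, TFAP2B, FOXD3 and COL3A1 entered the test only through LSB3i groups where they were high, so they add nothing to these counts. LHX2 entered only through LSB groups where it was high, and adds nothing either. Of 5 sensory neuron markers 3 were tested, POU4F1, ISL1 and PRPH, and all 3 were higher in LSB3i at day 15. POU4F1 and PRPH entered the test only through LSB3i groups, so they add nothing to this count. The neural progenitor marker SOX1 and the nociceptor factor RUNX1 were above background on no array. The part of these other cell types in the results below was not tested. In RNA from whole cultures, fewer cells of a type and less RNA per cell cannot be told apart.

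Levels below are log2 normalised intensities of 1 probe per gene, so they are compared between arrays and never between genes. A difference is a difference of mean log2 levels with its standard error (SE), n = 3 arrays per group, tested with limma across all 10038 genes. A gene is said to have risen or fallen, or to be higher or lower, where the Benjamini-Hochberg adjusted p was under 0.05 and the log2 difference was at least 1 in size, which is 2-fold.

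LSB3i cells at day 15 held less RNA of the kinesins that divide cells than LSB cells of the same day. All 10 mitotic kinesins with an annotated probe were tested, and 9 were lower in LSB3i, and the median log2 difference over the 10 was -1.74, against -0.10 over all genes. Over all 10038 genes, 15.8% were lower and 13.3% higher in this comparison. Among the 55 motor genes, 18 were lower and 10 higher. KIF20A was the mitotic kinesin that missed the threshold, with a log2 difference of -0.75 ± 0.26 (SE, adjusted p = 0.021). The mean raw signal of the arrays was similar, 427 to 513 in LSB and 448 to 485 in LSB3i.

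**Figure D1:**
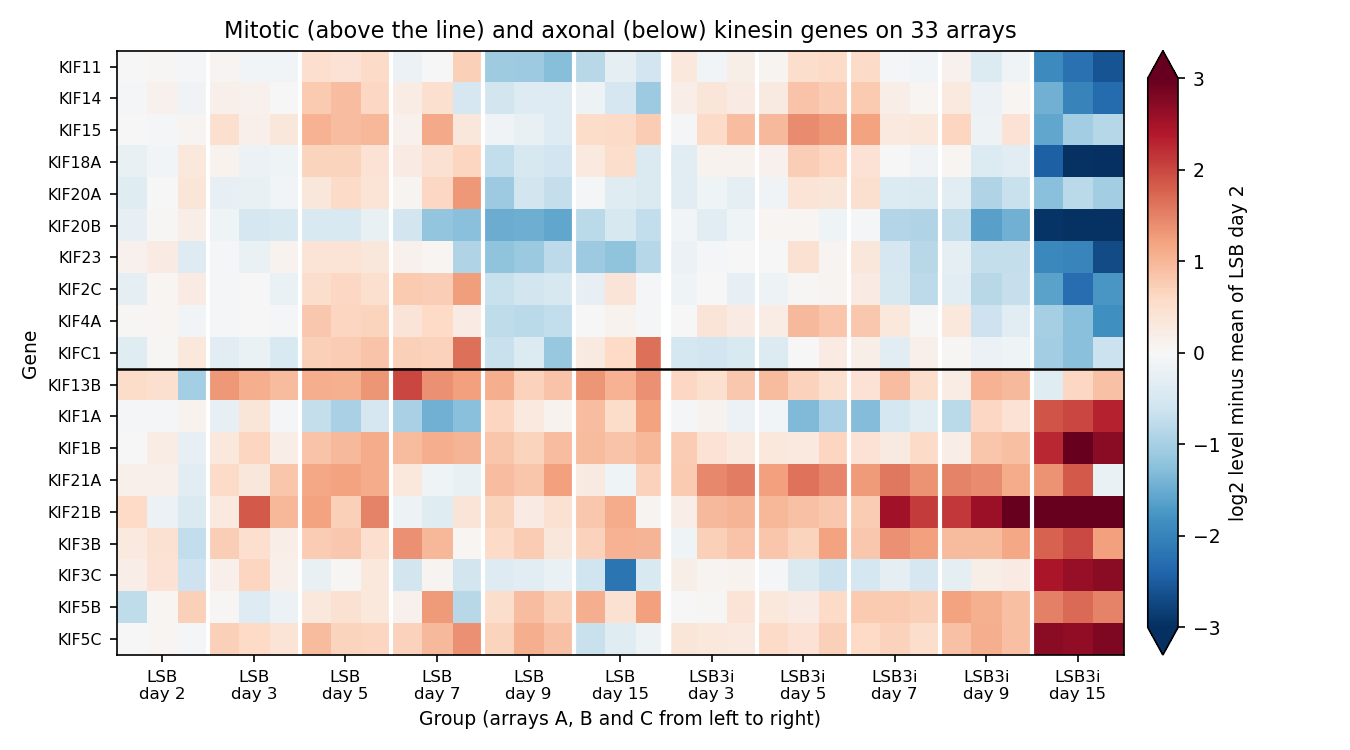
Log2 levels of 10 mitotic kinesin genes (above the line) and 9 axonal kinesin genes (below) on each of 33 arrays, minus the mean of the 3 LSB day 2 arrays; colours saturate at -3 and 3. The last 3 columns, LSB3i day 15, are blue above the line and mostly red below it, with array A of KIF13B and array C of KIF21A as the exceptions.

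KIF18A, a kinesin-8 that damps chromosome oscillations at the metaphase plate, was at 9.52, 9.74 and 8.79 on the LSB day 15 arrays and at 6.78, 6.27 and 5.99 in LSB3i. The LSB3i arrays were all below the LSB arrays, and none of the 3 was above background, so the difference is a bound of at least 5.63-fold (adjusted p = 9.09e-11). KIF20B, a kinesin-6 needed to complete cytokinesis, was at 10.80, 11.12 and 10.88 in LSB and at 8.66, 8.65 and 8.64 in LSB3i. It was 4.87-fold lower in LSB3i (log2 difference -2.29 ± 0.22, SE, adjusted p = 4.45e-09), with no overlap between the groups.

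KIF11, the kinesin-5 that slides spindle poles apart, was at 10, 10.56 and 10.26 in LSB and at 8.91, 8.59 and 8.23 in LSB3i, a log2 difference of -1.70 ± 0.22 (SE, adjusted p = 5.16e-07). A second KIF11 probe gave -0.85. KIF15, the kinesin-12 that can take over spindle assembly from KIF11, was at 9.98, 10 and 10.18 in LSB and at 7.86, 8.38 and 8.56 in LSB3i, a difference of -1.79 ± 0.27 (SE). Both bipolar spindle motors were lower on every LSB3i array than on any LSB array. KIF2C, which strips tubulin from microtubule ends at kinetochores, was at 10.33, 10.96 and 10.51 in LSB and 8.98, 8.30 and 8.83 in LSB3i. KIFC1, the minus-end-directed kinesin that focuses spindle poles, was at 8.95, 9.28 and 10.34 in LSB and 7.63, 7.42 and 8.04 in LSB3i. KIF2C was 3.71-fold and KIFC1 3.54-fold lower in LSB3i, with no overlap for either.

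KIF4A, a chromokinesin that sets the length of the central spindle, was at 9.32, 9.41 and 9.24 in LSB and at 8.30, 8.06 and 7.47 in LSB3i. KIF14, which works at the midbody, was at 9.88, 9.54 and 8.94 in LSB and at 8.60, 8.04 and 7.74 in LSB3i. Their log2 differences were -1.38 ± 0.23 (SE) and -1.33 ± 0.25 (SE). KIF23, the motor subunit of centralspindlin, was at 8.99, 8.86 and 9.21 in LSB and at 8.13, 8.10 and 7.40 in LSB3i. Its difference of -1.14 ± 0.27 (SE, adjusted p = 0.000994) was -0.91 without LSB3i array C, and a second KIF23 probe gave 0.29, so the lower KIF23 level rests on 1 of its probes.

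Genes whose products work with these motors were lower in part. Of 20 tested partners of the spindle and midzone, 11 were lower in LSB3i at day 15 and 0 higher, beside 15.8% and 13.3% of all genes, with a median log2 difference of -1.25. KNTC1, a kinetochore protein that recruits dynein, differed by -1.98 ± 0.22 (SE), ECT2, which acts in cytokinesis, by -1.83 ± 0.18 (SE), CCNB1, the mitotic cyclin B1, by -1.77 ± 0.30 (SE), and the kinase PLK1 by -1.63 ± 0.31 (SE). Over the 33 arrays the mean of the mitotic kinesins and the mean of these partners correlated at r = 0.983, and the median correlation between pairs of mitotic kinesins was 0.796. These correlations are descriptions over arrays that share groups and cultures, and no p is attached.

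The time courses parted late. Relative to the LSB day 2 mean, the mean level of the 10 mitotic kinesins in LSB was 0.53 ± 0.02 (SD, n = 3) at day 5, 0.30 ± 0.09 at day 7, -0.78 ± 0.07 at day 9 and -0.15 ± 0.08 at day 15. In LSB3i it was 0.37 ± 0.24 at day 5, 0.02 ± 0.42 at day 7, -0.34 ± 0.30 at day 9 and -1.86 ± 0.14 at day 15. The lowest LSB mean was thus at day 9 and lay above all 3 LSB3i arrays of day 15, which were at -1.72, -1.88 and -1.99. On LSB3i array A of day 7 the mean was 0.50, against -0.18 and -0.26 on B and C, and at day 9 it was -0.02, against -0.60 and -0.39.

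From day 3 to day 15, 8 of 10 mitotic kinesins fell in LSB3i, where 22.9% of all genes fell and 19.7% rose. In LSB over the same days 1 fell, KIF23, and 1 rose, KIFC1, where 12.1% of all genes fell and 10.7% rose. KIF23 (log2 change -1.0 ± 0.27, SE) lost its call without LSB day 3 array C, LSB day 15 array A or LSB day 15 array B (-0.93, -0.98 and -0.92), and KIFC1 (1.18 ± 0.28, SE) lost it without LSB day 15 array C (0.78). The change in LSB3i minus the change in LSB was past the threshold for 9 of the 10, all downward, with 13.3% of all genes lower and 13% higher by that test. KIF20B fell in LSB3i from 11.52, 11.26 and 11.47 at day 3 to the day 15 values above, a log2 change of -2.77 ± 0.22 (SE, adjusted p = 8.42e-11). KIF11 fell by 2.39 and KIF14 by 2.18 on the log2 scale.

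Most of the fall in LSB3i lay between days 9 and 15. The same 8 mitotic kinesins fell over those days, with 15.0% of all genes lower and 13.1% higher. KIF23 is among them on 1 of its probes (-1.63), while the second probe gave 0.02 and the mean of both -0.80, under the threshold. KIF11 was at 10.95, 10.41 and 10.71 at day 9, and KIF18A, still above background on all 3 arrays, at 9.29, 8.81 and 8.90. KIF18A fell at least 4.41-fold to day 15 and KIF11 4.33-fold. KIF4A fell by 1.15 on the log2 scale, but by 0.89 without LSB3i day 9 array A and by 0.91 without LSB3i day 15 array C, under the threshold.

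The axonal kinesins ran the other way. Of 11 with an annotated probe 9 were tested, without KIF5A and KIF3A. At day 15, 5 of the 9 were higher in LSB3i than in LSB and 0 lower, with a median log2 difference of 1.16 against -0.10 over all genes. The 5 were KIF3C, KIF5C, KIF21B, KIF1B and KIF1A, beside 13.3% of all genes higher. KIF21B entered the test through 2 LSB3i groups where it was high, so it adds nothing to this count, and the median with KIF21B at its bound was 1.16. KIF5B, KIF3B, KIF21A and KIF13B did not pass, with log2 differences of 0.64, 0.74, 0.72 and -0.86. A second KIF3B probe, which was not tested, gave 1.16.

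**Figure D2:**
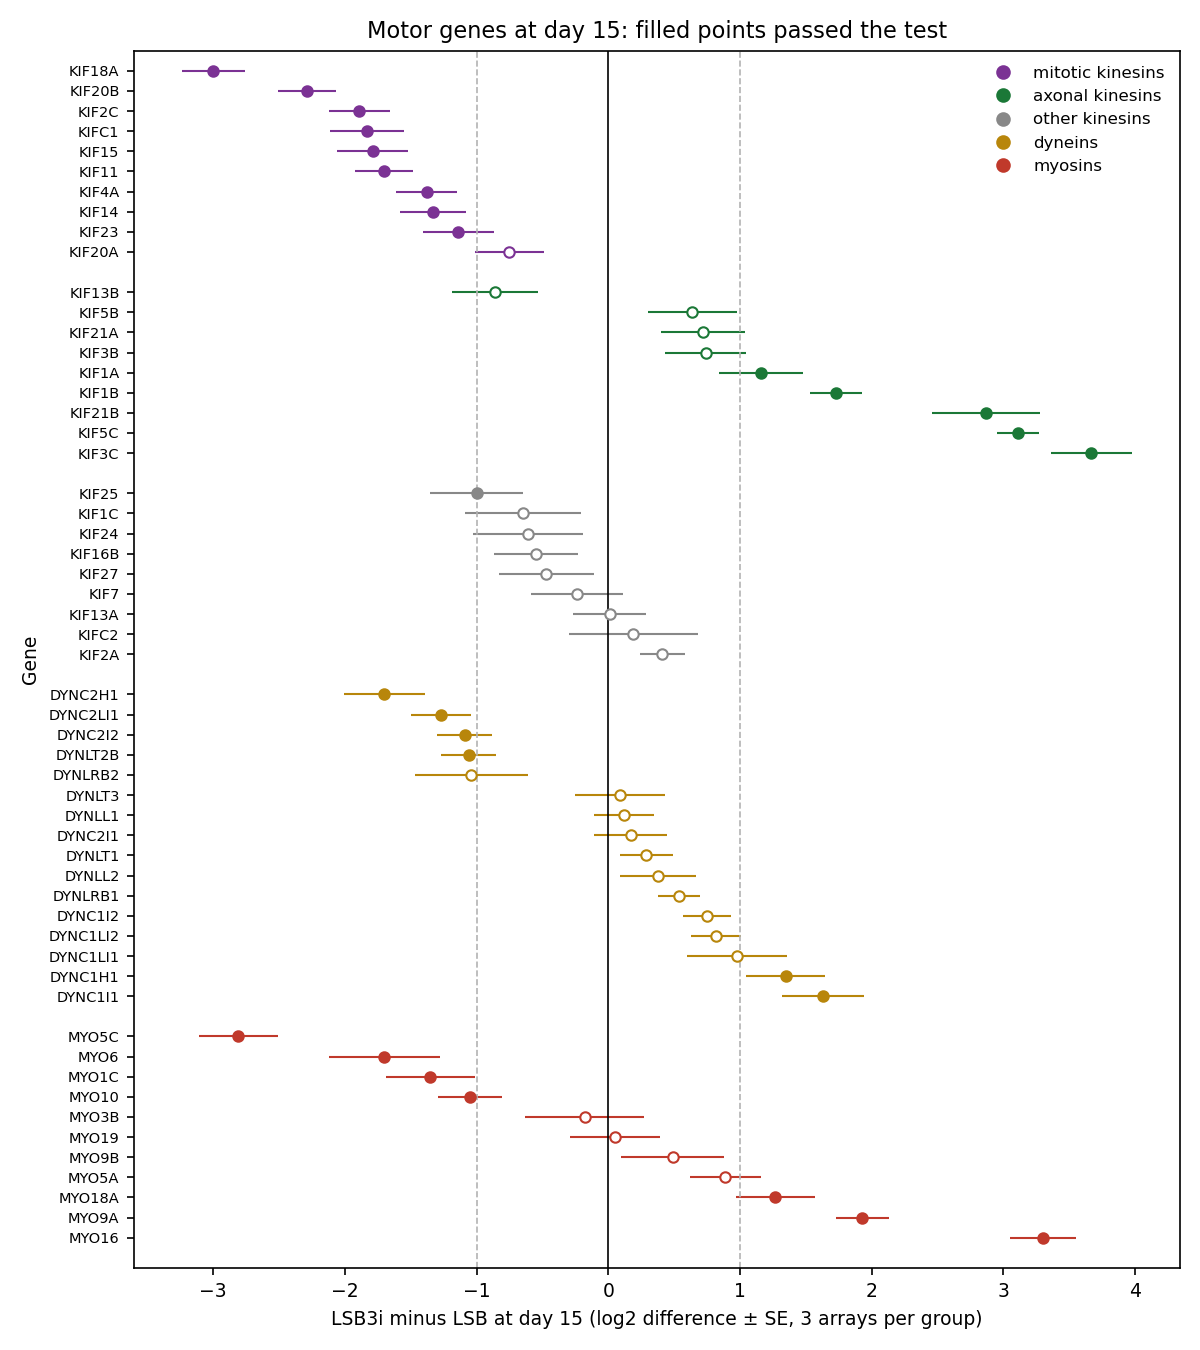
Log2 difference between LSB3i and LSB at day 15 for the 55 motor genes tested, with SE bars (n = 3 arrays per group), grouped by class; filled points passed the test and dashed lines mark a log2 difference of -1 and 1. All 10 mitotic kinesins lie left of 0, and KIF3C, at 3.67, lies farthest to the right; points of genes at background in a group, such as KIF18A, KIF21B and MYO16, are fitted values.

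KIF3C, a kinesin-2 that pairs with KIF3A and is enriched in neurons, was at 7.30, 5.72 and 7.45 on the LSB day 15 arrays and at 10.36, 10.51 and 10.62 in LSB3i. All LSB3i arrays were far above the LSB arrays, and the log2 difference was 3.67 ± 0.31 (SE, adjusted p = 4.04e-10), 12.8-fold. LSB array B, the lowest, adds to this size. Over 16 alternatives of processing or arrays left out, the log2 difference ran from 2.55 to 3.99 and kept its call. KIF5C, the neuron-enriched heavy chain of conventional kinesin, was at 10.47, 10.77 and 10.97 in LSB and at 13.83, 13.79 and 13.93 in LSB3i. It was 8.66-fold higher (log2 difference 3.11 ± 0.16, SE, adjusted p = 2.39e-14), with no overlap. KIF5B, the conventional kinesin found in most cells, was at 9.69, 9.04 and 9.82 in LSB and at 10.10, 10.30 and 10.07 in LSB3i, a log2 difference of 0.64 ± 0.34 (SE, adjusted p = 0.127).

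KIF21B, a kinesin-4 of dendrites and axons that also slows microtubule growth, was higher in LSB3i at days 7, 9 and 15. It was above background on 0 of 3 LSB arrays at days 7, 9 and 15. In LSB3i it was at 6.42, 8.17 and 7.75 at day 7, at 7.76, 8.21 and 8.87 at day 9 and at 8.86, 9.58 and 9.13 at day 15. All LSB3i arrays were above the LSB arrays of the same day, with the smallest margin on array A of day 7. It was at least 1.06-fold higher at day 7 (adjusted p = 0.00117), at least 3.32-fold at day 9 (adjusted p = 0.000202) and at least 5.21-fold at day 15 (adjusted p = 1.97e-06).

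KIF1B, which carries mitochondria and synaptic vesicle precursors, was at 11.32, 11.23 and 11.37 in LSB and at 12.64, 13.38 and 13.09 in LSB3i at day 15, a log2 difference of 1.73 ± 0.20 (SE, adjusted p = 5.91e-08). Its second probe gave 0.37 and correlated with the first at 0.05 over the arrays, so the 2 KIF1B probes disagree. KIF1A, the vesicle motor of neurons, was at 11.78, 11.40 and 12.06 in LSB and at 12.74, 12.84 and 13.15 in LSB3i. Its difference of 1.16 ± 0.32 (SE, adjusted p = 0.00377) was 0.99 without LSB day 15 array B, just under the threshold. KIF21A, a near relative of KIF21B, was at 9.85, 10.33 and 8.30 in LSB3i and at 8.78, 8.36 and 9.18 in LSB, with array C of LSB3i below all LSB arrays.

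Within LSB3i, 7 of the 9 axonal kinesins rose from day 3 to day 15, where 19.7% of all genes rose and 22.9% fell. With the mean of a gene's probes 5 rose over these days, and 5 with arrays scaled to a common median of all probes. KIF1B and KIF3B lost their calls with the mean of their probes. KIF1B was then at 0.92, and its second probe gave -0.32. KIF21B is among the 7 and adds nothing to this count, since it entered through 2 LSB3i groups where it was high. From day 9 to day 15, 4 of the 9 rose, where 13.1% of all genes rose and 15.0% fell. With arrays scaled to a common median of all probes, 1 rose and 2 fell from day 9 to day 15. That scaling moved the median of all genes there by -0.98. KIF5C rose by 2.40 ± 0.16 (SE) and KIF3C by 2.48 ± 0.31 (SE) on the log2 scale over days 3 to 15. In LSB, KIF3C changed by -1.39 ± 0.31 (SE, adjusted p = 0.00104) over the same days, but by -0.84 without array B of LSB day 15, which had the lowest KIF3C level of all 33 arrays. KIF5B rose by 1.11 in LSB, and by 0.96 without LSB day 15 array C. KIF3B, the ubiquitous kinesin-2 partner, rose by 1.18 ± 0.31 (SE) in LSB3i, and by 0.87 without LSB3i day 3 array A. The difference between the treatments' changes was past the threshold for 5 of 9, KIF3C, KIF5C, KIF21B, KIF1B and KIF1A, all upward. By that test 13% of all genes were higher and 13.3% lower.

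**Figure D3:**
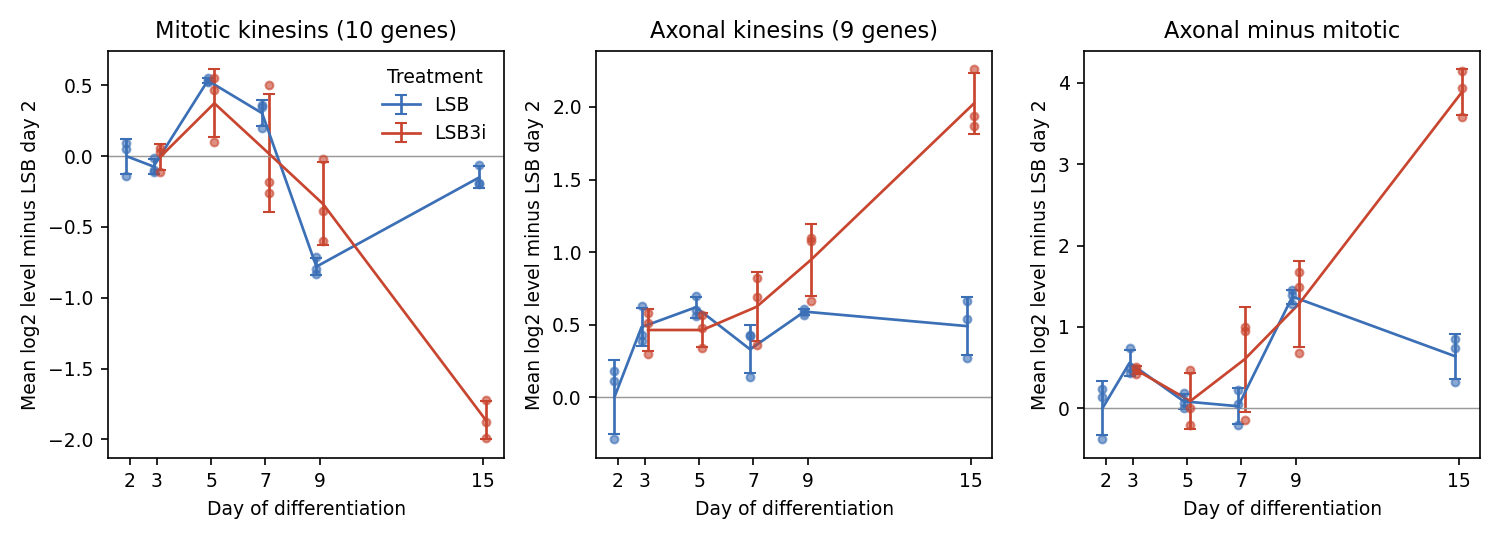
Mean log2 level of the 10 mitotic kinesins, of the 9 axonal kinesins, and the second minus the first, relative to LSB day 2, against day of differentiation; points are arrays, lines join group means, and bars are SD (n = 3). The third panel reaches 3.88 in LSB3i at day 15 and 0.64 in LSB. The means include KIF21B and KIF18A, at background in some groups, as fitted values.

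The 2 lists were set against each other on every array, as the mean level of the axonal kinesins minus that of the mitotic kinesins, relative to LSB day 2. This contrast was 0.74, 0.33 and 0.85 on the LSB arrays of day 15 and 3.58, 4.14 and 3.93 on the LSB3i arrays. The means include KIF21B, which entered through LSB3i groups where it was high, and KIF18A, at background in LSB3i at day 15. The contrast is thus in part fitted against background and gives no exact size. At day 9 it did not separate the treatments, at 1.45, 1.28 and 1.39 in LSB and 0.68, 1.68 and 1.49 in LSB3i. With probes above background on at least 17 arrays, which leaves out KIF21B, the LSB3i minus LSB difference was 3.07 at day 15 (3.24 in the main fit) and -0.32 at day 9 (-0.09). The day 9 values in LSB went with lower mitotic kinesins, while the axonal mean was 0.59 ± 0.02 (SD, n = 3) at day 9 and 0.62 ± 0.07 at day 5. In LSB3i the axonal mean rose from 0.95 ± 0.25 at day 9 to 2.02 ± 0.21 at day 15 as the mitotic mean fell.

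At day 7 the LSB3i contrast was 1.0 and 0.95 on arrays B and C and -0.14 on array A, and at day 5 array A was the highest of its group at 0.47. The axonal and mitotic means correlated at r = -0.803 over the 33 arrays, and axonal kinesins with each other at a median of 0.434. The LSB3i day 15 group, with a mitotic mean of -1.86 and an axonal mean of 2.02, lies far from the others and weighs heavily in this r. At LSB day 5 both means were above LSB day 2, at 0.53 and 0.62. The r without LSB3i day 15 was not computed. Neurons' own microtubule genes moved with the axonal kinesins. Of 13 neuronal tubulins and microtubule-associated proteins tested, 11 were higher in LSB3i at day 15 and 0 lower, beside 13.3% and 15.8% of all genes, among them MAPT, which encodes tau, STMN2 and DCX, with log2 differences of 6.46, 6.00 and 3.86. Mean levels of the neuron markers, relative to LSB day 2, ran from 5.81 to 5.95 on the LSB3i day 15 arrays and from -0.69 to -0.38 in LSB. That list includes the markers named earlier that entered the test only through LSB3i groups. The mesenchyme and smooth muscle list ran from 2.74 to 3.30 in LSB3i and from 1.24 to 1.75 in LSB, and its part was not tested.

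Promoters of the 2 kinesin classes are shown because the mitotic kinesins moved together on these arrays. Genes of the G2 and M phases are known to carry CCAAT boxes, bound by NF-Y, and a nearby element called CHR, with the letters TTTGAA or TTCGAA, where cell cycle complexes bind. RefSeq promoter sequences (GRCh38.p14, 250 bases before to 50 after the annotated start) matched 49 of the 55 motor genes, and both motifs were searched on both strands. A CCAAT and a CHR match shared 1 letter in 1 of these genes, DYNC2I2. The 150 bases before the start are printed for 4 mitotic kinesins with both motifs in this stretch, which are in capitals (ATTGG and TTCAAA are the reverse strand).
KIF11, chr10:92592980-92593129, plus strand: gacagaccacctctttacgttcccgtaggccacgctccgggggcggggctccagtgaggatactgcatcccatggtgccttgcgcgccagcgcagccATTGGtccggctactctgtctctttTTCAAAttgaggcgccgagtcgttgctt
KIF18A, chr11:28108157-28108306, minus strand: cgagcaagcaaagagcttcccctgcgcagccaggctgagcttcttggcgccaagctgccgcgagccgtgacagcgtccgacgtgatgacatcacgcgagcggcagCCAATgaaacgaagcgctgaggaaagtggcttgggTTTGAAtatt
KIF23, chr15:69414199-69414348, plus strand: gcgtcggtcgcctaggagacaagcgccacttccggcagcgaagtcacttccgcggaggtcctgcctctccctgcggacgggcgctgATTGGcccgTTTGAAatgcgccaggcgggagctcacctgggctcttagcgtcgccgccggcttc
KIF4A, chrX:70289954-70290103, plus strand: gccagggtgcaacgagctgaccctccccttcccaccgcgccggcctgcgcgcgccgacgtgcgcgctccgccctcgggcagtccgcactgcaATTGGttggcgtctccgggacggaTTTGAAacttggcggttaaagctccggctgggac
For comparison, the same stretch is printed for 2 axonal kinesins that were higher at day 15, where neither motif was found.
KIF3C, chr2:25982498-25982647, minus strand: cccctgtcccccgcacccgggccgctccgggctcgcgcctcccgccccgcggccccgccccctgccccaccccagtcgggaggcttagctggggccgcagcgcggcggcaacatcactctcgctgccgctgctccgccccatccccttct
KIF1A, chr2:240821404-240821553, minus strand: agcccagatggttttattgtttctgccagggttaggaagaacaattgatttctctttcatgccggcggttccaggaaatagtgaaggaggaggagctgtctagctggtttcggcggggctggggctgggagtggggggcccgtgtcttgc

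In the whole window, 8 of 10 mitotic kinesins had CCAAT, 8 had TTTGAA or TTCGAA, and 7 (70%) had both. Of 27305 annotated promoters, 35.7% had CCAAT, 16.6% had TTTGAA or TTCGAA and 6.58% had both. Among 7 axonal kinesins with a promoter sequence, 3 had CCAAT and 1, KIF5B, had both, and of 11 myosins 1, MYO16, had both. A match is a run of letters and not a measured binding site, and windows with no match, such as those of KIF3C and KIF1A, say only that these letters are not there.

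Of the dynein genes, 2 of 11 subunits of cytoplasmic dynein 1 were higher in LSB3i than in LSB at day 15 and 0 lower, with a median log2 difference of 0.54. With 13.3% of all genes higher, this share is near the background. The 2 were DYNC1H1, the motor heavy chain, and DYNC1I1, the intermediate chain that is enriched in neurons. DYNC1H1 was at 10.21, 9.60 and 10.14 in LSB and at 10.88, 11.12 and 12.01 in LSB3i, a log2 difference of 1.35 ± 0.30 (SE, adjusted p = 0.000631). DYNC1I1 was at 7.90, 7.41 and 7.47 in LSB and at 9.46, 9.33 and 8.89 in LSB3i, a difference of 1.63 ± 0.31 (SE, adjusted p = 8.93e-05). The LSB3i arrays were above the LSB arrays for both.

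**Figure D4:**
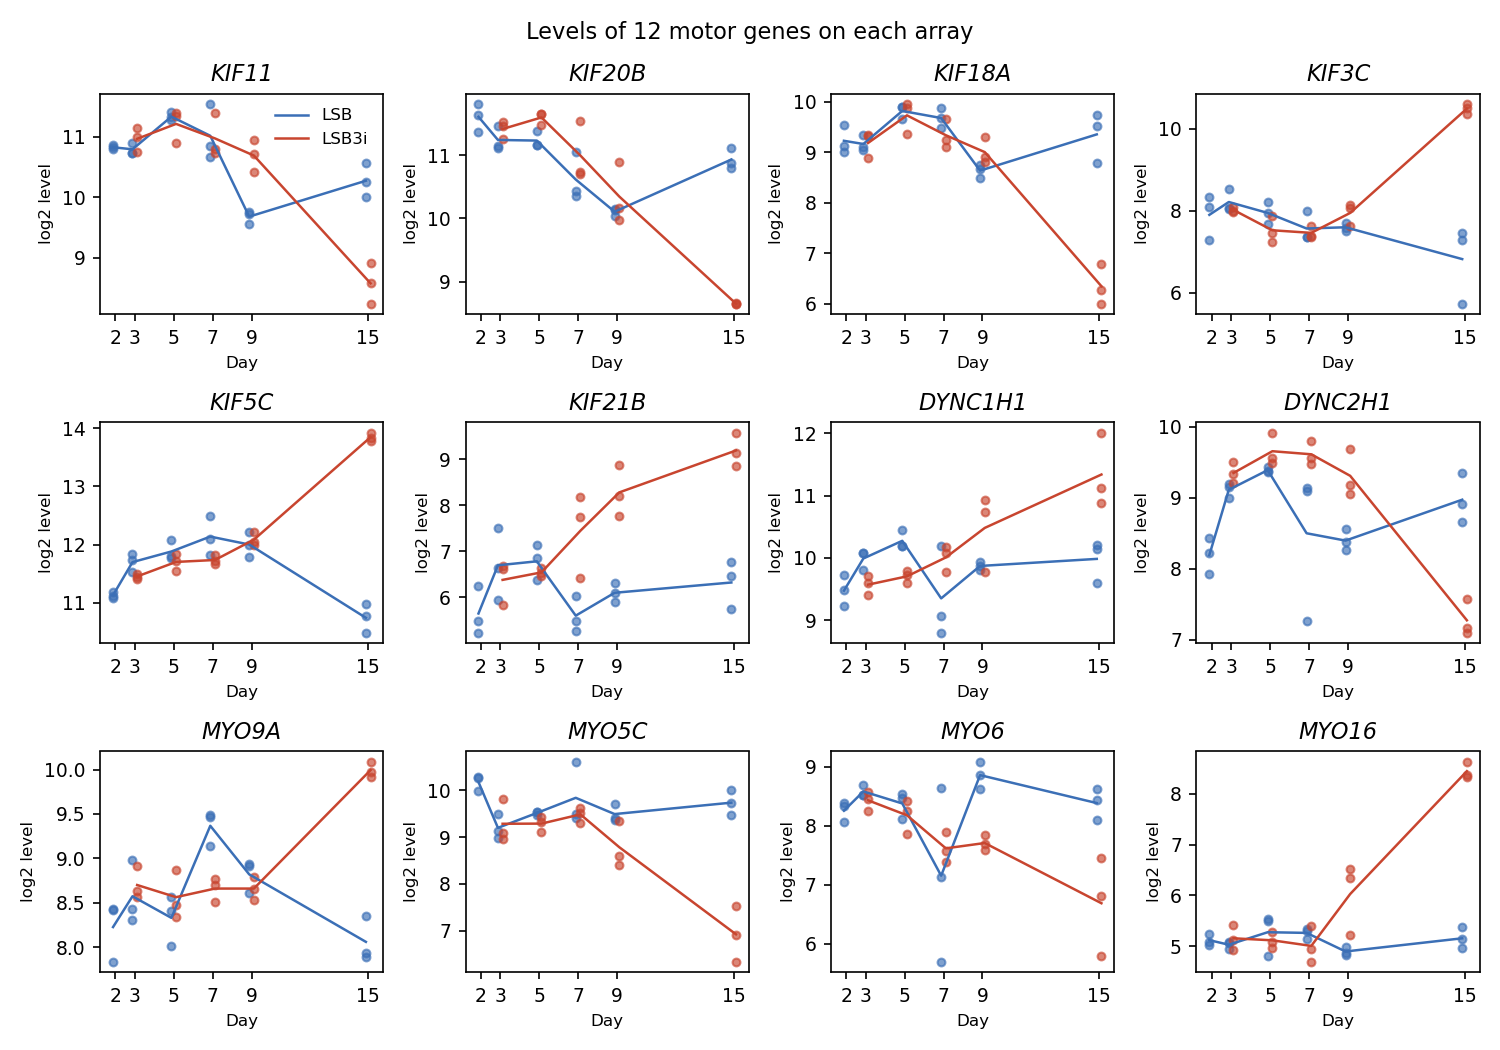
Log2 levels of 12 motor genes against day of differentiation in LSB and LSB3i; points are single arrays and lines join the group means of 3 arrays. KIF11, KIF20B and KIF18A fall in LSB3i after day 9 while KIF3C, KIF5C, DYNC1H1, MYO9A and MYO16 rise.

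Within LSB3i, 5 of the 11 dynein 1 genes rose from day 3 to day 15, DYNC1H1, DYNC1I1, DYNC1I2, DYNC1LI1 and DYNC1LI2, where 19.7% of all genes rose. With arrays scaled to a common median of all probes, DYNC1I1 alone kept its call (1.09), while DYNC1H1 was at 0.93, DYNC1LI1 at 0.42, DYNC1LI2 at 0.26 and DYNC1I2 at 0.13. With the median of the probes that passed, DYNC1LI2 (0.95) and DYNC1I2 (0.82) lost their calls. DYNC1H1 rose from 9.59, 9.71 and 9.41 to the day 15 values above, 3.40-fold. DYNC1I2, the intermediate chain found in most cells, rose by 1.08 ± 0.18 (SE) on the log2 scale, and by 0.96 without LSB3i day 15 array A. DYNC1LI2, a light intermediate chain that binds cargo adaptors, rose by 1.26 ± 0.19 (SE). Its paralog DYNC1LI1 rose by 1.10 ± 0.38 (SE), by 0.77 without LSB3i day 3 array A and by 0.92 without LSB3i day 15 array C. DYNC1LI1 was above background on 2 of 3 LSB3i arrays at day 3.

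None of the 6 tested light chains of dynein 1 passed at day 15. DYNLL1, the light chain shared with many other complexes, was at 14.12, 14.02 and 14.64 in LSB and at 14.58, 14.35 and 14.23 in LSB3i, and the groups overlapped. The log2 differences of DYNLL2, DYNLT1, DYNLT3 and DYNLRB1 ran from 0.09 to 0.54. DYNLRB2, a roadblock chain, was above background on 2 LSB arrays and 0 LSB3i arrays, with an adjusted p of 0.0506. In LSB, 0 of the 11 dynein 1 genes changed from day 3 to day 15.

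Dynein 2 pulls intraflagellar transport trains back from the tip of the primary cilium. Of 6 ciliary motor genes tested, kinesins included, 2 were lower in LSB3i at day 15, DYNC2H1 and DYNC2LI1, and of 3 other dynein genes 2 were lower, DYNC2I2 and DYNLT2B, where 15.8% of all genes were lower. DYNC2H1, the heavy chain of dynein 2, was at 9.35, 8.66 and 8.91 in LSB at day 15 and at 7.57, 7.09 and 7.16 in LSB3i. The groups did not overlap, and the log2 difference was -1.70 ± 0.31 (SE, adjusted p = 5.15e-05). DYNC2LI1, its light intermediate chain, was at 10.73, 10.19 and 9.96 in LSB and at 9.18, 9.00 and 8.89 in LSB3i, a difference of -1.27 ± 0.23 (SE, adjusted p = 6.92e-05). DYNC2I2, an intermediate chain, differed by -1.09 ± 0.21 (SE), and by -0.81 without LSB3i array A. DYNLT2B, a light chain of dynein 2, differed by -1.06 ± 0.21 (SE), by -0.83 without LSB array B and by -0.90 without LSB3i array C, and its second probe gave -1.57. DYNC2I1, the other intermediate chain, did not pass (0.17 ± 0.28, SE).

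These 4 differences had different courses. DYNC2H1 fell in LSB3i from 9.69, 9.18 and 9.06 at day 9, a log2 change of -2.04 ± 0.31 (SE, adjusted p = 5.83e-06). DYNLT2B and DYNC2LI1 instead rose in LSB from day 3 to day 15, by 1.55 ± 0.21 and 1.12 ± 0.23 (SE) on the log2 scale. DYNLT2B was at 12.95, 13.51 and 12.71 in LSB at day 15 against 11.55, 11.44 and 11.53 at day 3. DYNC2LI1 rose by 0.90 without LSB day 15 array A. Of the kinesins of the cilium, KIF7, the Hedgehog pathway kinesin, and KIF24 and KIF27 did not pass at day 15. The log2 difference of KIF7 was -0.24, and KIF24 and KIF27 were above background on no LSB3i array of that day.

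**Figure D5:**
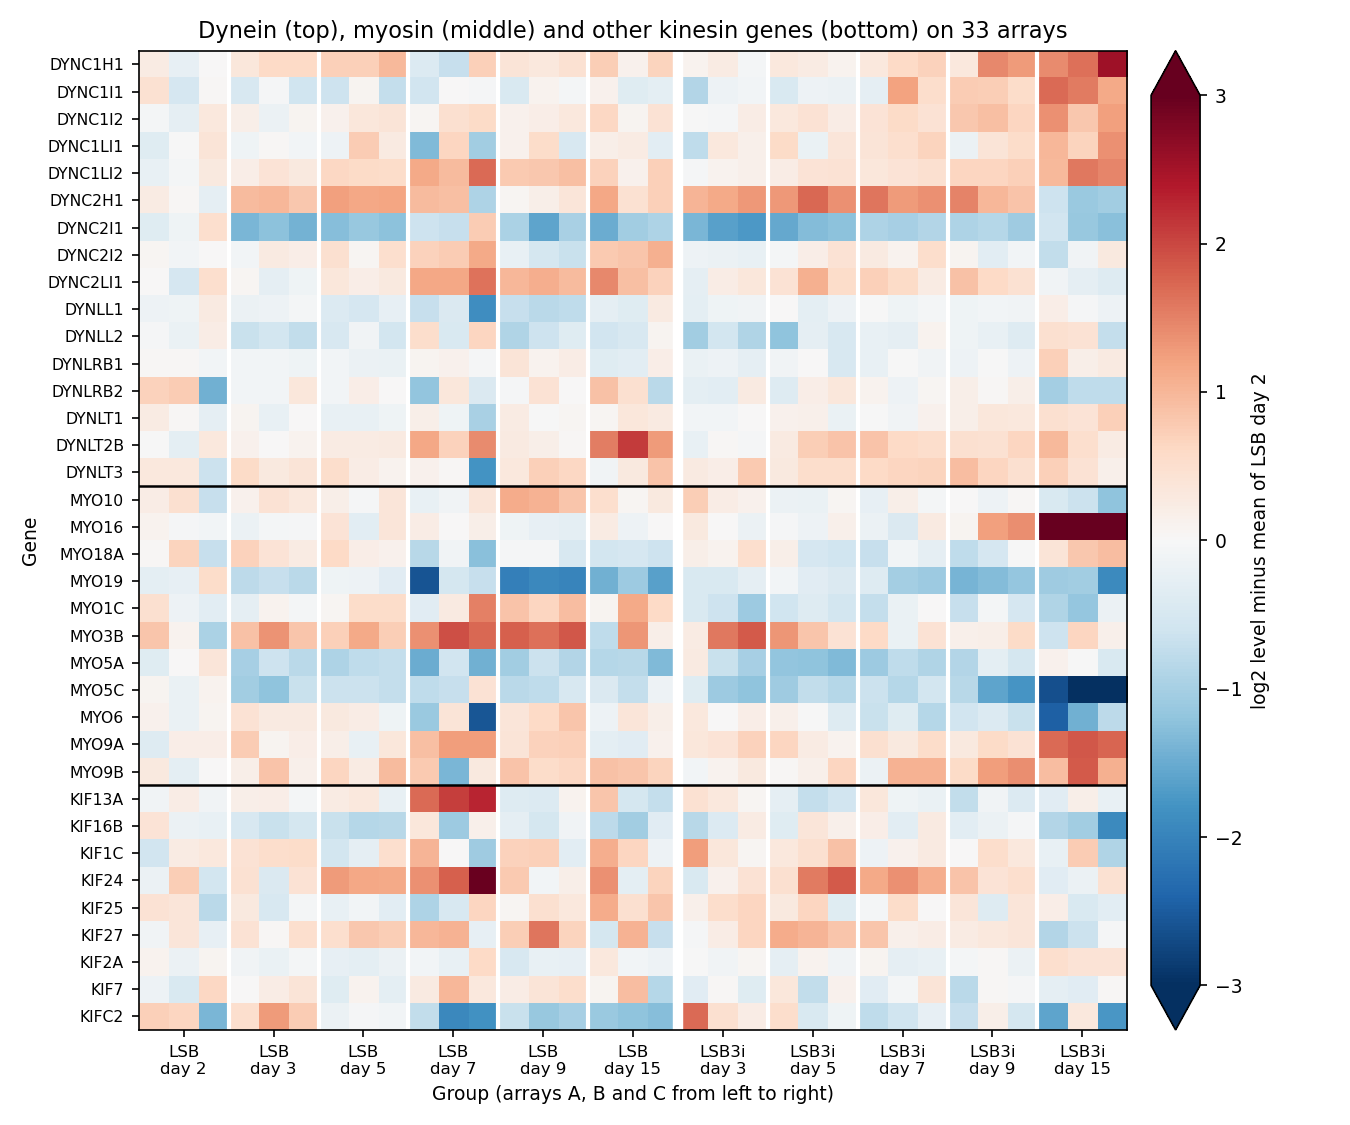
Log2 levels of 16 dynein genes (top), 11 myosin genes (middle) and 9 other kinesin genes (bottom) on each of 33 arrays, minus the mean of the 3 LSB day 2 arrays; colours saturate at -3 and 3. In the last 3 columns, LSB3i day 15, MYO16 and the 5 DYNC1 genes at the top are red and MYO5C is blue.

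Adaptors and regulators of the transport motors were called higher about as often as other genes at day 15, and lower less often. On that day 13.3% of all genes were higher and 15.8% lower. Of 14 kinesin light chains and cargo adaptors, 3 were higher in LSB3i and 0 lower. They were KLC1, the light chain that links conventional kinesin to cargo (log2 difference 2.39 ± 0.19, SE), KIFAP3, the accessory subunit of kinesin-2 (2.63 ± 0.28, SE), and the scaffold MAPK8IP1 (1.80 ± 0.35, SE). From day 3 to day 15, 8 of the 14 rose in LSB3i, where 19.7% of all genes rose, and 1 fell, KTN1, a kinesin receptor of the endoplasmic reticulum. Of 20 genes of dynactin and dynein adaptors, 2 were higher at day 15, ACTR10 and BICD1, and 1 lower, HOOK1, an endosomal adaptor (-2.25 ± 0.35, SE). From day 3 to day 15, 7 of these rose in LSB3i, among them DCTN3 and DCTN1, 2 dynactin subunits, BICD2, a vesicle adaptor, and PAFAH1B1, which encodes LIS1, and 3 fell, HOOK1, RILP and CAPZA1.

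Myosins showed no shared direction. Of 11 tested, 3 were higher and 4 lower in LSB3i at day 15, beside 13.3% and 15.8% of all genes, and their median log2 difference was 0.05. Pairs of myosins correlated over the 33 arrays at a median of -0.037. Only 2 of the 11 were above background in all groups.

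MYO16, an unconventional myosin expressed mainly in brain, was above background on 0 LSB arrays of any day. It was at 5.37, 4.96 and 5.13 in LSB at day 15 and at 8.33, 8.64 and 8.38 in LSB3i. It was at least 3.11-fold higher in LSB3i (adjusted p = 3.08e-11), and day 15 of LSB3i was the group through which it entered the test. At day 9 it was at 5.21, 6.35 and 6.52 in LSB3i, with 1 of the 3 arrays above background. It was called higher there (adjusted p = 0.000979) with no size given, since the LSB arrays were at background, and lost the call without LSB3i array B or C.

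MYO9A, a class IX myosin, was at 7.94, 7.89 and 8.35 in LSB at day 15 and at 9.92, 10.09 and 9.97 in LSB3i. It was 3.82-fold higher (log2 difference 1.93 ± 0.20, SE, adjusted p = 1.62e-08), and a second probe gave 1.46. MYO18A, a myosin that joins Golgi membranes to actin, was above background on 0 LSB and 2 LSB3i arrays at day 15, at least 1.23-fold higher (adjusted p = 0.000962). MYO5A, the class V myosin of melanosomes and neuronal vesicles, was at 8.21, 8.25 and 7.74 in LSB and at 9.21, 9.05 and 8.61 in LSB3i. Its log2 difference of 0.89 ± 0.27 (SE, adjusted p = 0.00852) was under 1.

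MYO5C, a paralog of MYO5A and a class V myosin known from secretory epithelia, was at 9.73, 9.46 and 10.01 in LSB and at 7.53, 6.33 and 6.92 in LSB3i. It was 7.00-fold lower in LSB3i at day 15 (log2 difference -2.81 ± 0.30, SE, adjusted p = 1.88e-08). MYO6, the myosin that walks toward the minus end of actin filaments in endocytosis, was at 8.10, 8.62 and 8.44 in LSB and at 5.80, 6.81 and 7.46 in LSB3i, where array A was the lowest. The groups did not overlap for either gene, and the log2 difference of MYO6 was -1.70 ± 0.42 (SE, adjusted p = 0.00169). MYO1C, a membrane-tethering myosin, was above background on all LSB and 0 LSB3i arrays, at least 1.67-fold lower. MYO10, the motor of filopodia, differed by -1.05 ± 0.24 (SE), by -0.94 without LSB array A and by -0.84 without LSB3i array C. The 4 epithelial markers were lower in the same arrays, with list means from -3.71 to -3.20 in LSB3i and from -0.85 to -0.46 in LSB relative to LSB day 2, and their part in the myosin differences was not tested.

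Of these 4 myosins, MYO5C and MYO6 also fell within LSB3i from day 9 to day 15, where MYO6 (-1.02 ± 0.42, SE, adjusted p = 0.0497) lost its call on leaving out any of 5 of the 6 arrays, with -0.58 without LSB3i day 15 array A. MYO5C fell by 1.86 ± 0.30 (SE) on the log2 scale. Of 12 tested genes of conventional myosin chains and myosin partners, which are not among the 55, 0 were higher and 1 was lower at day 15, the light chain MYL5. Of 4 skeletal muscle markers, MYOG and DES were above background on no array and MYOD1 on 1 array, of LSB day 15. The fourth, TNNT1, was above background on all LSB arrays of days 2 to 9 and on 1 of LSB day 15. It was on 0 LSB3i arrays of days 9 and 15, and was called lower in LSB3i at days 7, 9 and 15.

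Few of the remaining kinesins passed the test. KIF2A, a microtubule depolymerase that trims axon branches, had a log2 difference at day 15 of 0.41 ± 0.17 (SE, adjusted p = 0.0537). KIF25 passed the test (adjusted p = 0.0213), lower in LSB3i by at least 1.37-fold, but not without LSB array A or C or LSB3i array B or C. KIFC2, a neuronal kinesin of the minus-end-directed class, was at 7.43, 8.20 and 7.69 in LSB at day 3 and at background on all LSB arrays at day 15, at least 1.95-fold lower. It was also called lower in LSB3i over the same days. KIF13A, KIF1C, KIF16B and KIF13B did not pass at day 15.

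Before day 7 no motor gene passed the test between the treatments. At day 3, limma called 0 of 55 (0.0498% of all genes higher, 0.209% lower), and at day 5 also 0 (1.10% higher, 2.13% lower). At an unadjusted p under 0.05, 1 of the 55 differed at day 3 and 7 at day 5.

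At day 7, 5 motor genes were higher in LSB3i and 4 lower, where 12.9% of all genes were higher and 6.48% lower. The LSB day 7 arrays had the widest spread, and with arrays scaled to a common median over all probes, which moved the median of all genes by 1.39, 36 motor genes were higher and 1 lower, and over the probes that passed, 1 was higher and 7 lower. KIF21A was at 9.78, 10.09 and 9.85 in LSB3i and at 8.82, 8.36 and 8.27 in LSB, a log2 difference of 1.42 ± 0.32 (SE, adjusted p = 0.00147). KIF13A, which carries endosomes, was above background in 1 group of the study, LSB day 7, at 7.28, 7.66 and 7.87, and was at least 2.15-fold lower in LSB3i. KIF2C was at 11.37, 11.32 and 11.83 in LSB and at 10.82, 10.10 and 9.79 in LSB3i, a difference of -1.27 ± 0.23 (SE), which turned to 0.30 under the all-probe median, as that of KIFC1 turned to 0.54. DYNC2H1 and DYNLT3 were higher by 1.11 and 1.17, but by 0.50 and 0.55 without LSB array C, the dimmest of the study. KIFC1 was lower by 1.01, and MYO3B by 1.40, and DYNC1LI1, whose groups overlapped, was higher by 1.09. Without LSB array C, KIFC1 was at -0.70 and DYNC1LI1 at 0.85, and without LSB array B, MYO3B had an adjusted p of 0.0501.

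At day 9, 3 motor genes were higher in LSB3i (KIF21B, KIF11 and MYO16) and 4 lower (MYO3B, MYO1C, MYO6 and MYO10), where 8.35% of all genes were higher and 8.27% lower. With arrays scaled to the all-probe median, 5 were higher and 2 lower. KIF11 was at 9.75, 9.73 and 9.56 in LSB and at 10.95, 10.41 and 10.71 in LSB3i, opposite to its order at day 15. Its difference of 1.01 ± 0.22 (SE, adjusted p = 0.00102) was 0.88 without LSB3i array A and 0.95 without LSB array C. Over the 10 mitotic kinesins the median difference at day 9 was 0.49, with 9 of 10 above 0 and 1 past the threshold. Without LSB3i array A, left out after seeing the data, it was 0.32, with 7 of 10 above 0. MYO3B was at 8.36, 8.24 and 8.44 in LSB and at 6.72, 6.76 and 7.15 in LSB3i. MYO1C differed by -1.23 ± 0.34 (SE), MYO10 by -1.03 ± 0.24 (SE, -0.97 without LSB array A or LSB3i array B) and MYO6 by -1.15 ± 0.42 (SE), which lost its call on leaving out any 1 of the 6 arrays. Without LSB3i day 9 array B the count at day 9 was 4 in place of 7.

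Over all 55 genes, the count from day 3 to day 15 in LSB3i was 15 risen and 14 fallen, beside 19.7% and 22.9% of all genes, and with the all-probe median, which moved the median of all genes by -0.81, it was 7 and 21. In LSB it was 4 risen (DYNLT2B, KIFC1, DYNC2LI1 and KIF5B) and 3 fallen (KIFC2, KIF3C and KIF23), beside 10.7% and 12.1% of all genes, and with that scaling, which moved the median by -0.64, 0 and 12. From day 9 to day 15 in LSB3i, 7 rose and 12 fell, beside 13.1% and 15.0% of all genes, and with that scaling 2 and 26. The test of the difference between the treatments' changes gave 11 upward and 15 downward, beside 13% and 13.3% of all genes. With that scaling it gave 8 and 11.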

How the data were processed

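Total RNA of 33 samples was hybridised to 1-colour Illumina bead arrays. The authors deposited a table of 48803 probes with a mean bead intensity and a detection p-value per array, not normalised. Per the submitters' processing notes, GenomeStudio was used, with a version not given in the sources used here. Of the probes, 28111 have a gene annotation and 13 of these name several genes and were left unnamed. Intensities were background-corrected by normexp with the detection p-values (limma 3.58.1, R 4.3.3, offset 16), quantile-normalised and set to log2. Background correction shrinks differences near background, so where 1 of the compared groups had no array above background, a fold is given as a bound only, from the lowest signal among detected probes of each array, and a fitted log2 difference of such a gene is no size.

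Probes above background (detection p under 0.01) on all 3 arrays of a group, 14651 in number, were kept, and each gene was represented by its probe with the highest mean signal. One limma fit over 11 groups (22 residual degrees of freedom) gave 9 comparisons, with Benjamini-Hochberg adjustment over 10038 genes. The median SE was 0.281 between 2 groups and 0.398 for the difference of changes, so 3 arrays per group set how small a difference can be told from the spread. The members and the gene lists were chosen with earlier results of these data known. Any tested motor gene may be named, with values on single arrays for a set panel of motor genes and for the 4 highest and 4 lowest called in each comparison. Of partner lists, up to 4 called genes at each end are named, and the cell type markers.

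Averaged over 55 pairs of groups, deviations from group means correlated at 0.00381 between same-letter arrays and -0.0015 between others. The average shows no pairing by letter, but it cannot tell whether some of the groups were paired. A second deposited table holds the authors' processed intensity values, whose probe IDs do not match the first table's values. Its probes were matched by their ranks on each array (2395 of 48780 probes matched so, 4.91%, carry the same ID). They were used as an alternative only. LSB3i at day 2 was not analysed here. Alternatives were another offset, 2 median scalings (1 of them, over the probes that passed, added after seeing the data), a stricter probe filter, the mean of a gene's probes, array weights, the letter as a block, fits of the compared groups alone, and each array left out. Figures were drawn with Python 3.11.15 and matplotlib 3.10.9.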

Additional observations from a re-analysis of the deposited data

Results flagged for a closer look

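For 26 motor genes, the change from day 3 to day 15 differed between LSB3i and LSB, by limma's test of that difference (n = 3 arrays in each of 4 groups). Of these genes, 11 differed upward and 15 downward, where 13% of all genes were higher and 13.3% lower by the same test. Values are the LSB3i change minus the LSB change on the log2 scale. Both changes of a gene use different arrays, and the day 15 arrays are those of the comparison at day 15.

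Mitotic kinesins gave 9 of the 26, all downward. These were KIF18A at -3.03, KIF20B at -2.46, KIF15 at -1.95, KIF11 at -1.88, KIF2C at -1.87, KIFC1 at -1.65, KIF4A at -1.63, KIF14 at -1.49 and KIF23 at -1.12. KIF23 lost its call without LSB day 3 array B (-1.05), LSB day 15 array C (-1.03) or LSB3i day 15 array C (-0.89).

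Axonal kinesins gave 5, all upward, and KIF21B, which entered the test through LSB3i groups where it was high, adds nothing to this count. KIF3C differed by 3.87, KIF5C by 3.36, KIF21B by 3.18, KIF1B by 1.63 and KIF1A by 1.21. KIF1A lost its call on leaving out single arrays of all 4 groups, with values from 1.04 to 1.24.

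Among dynein genes, DYNC1H1 differed by 1.77, DYNC1I1 by 1.63 and DYNC1LI2 by 1.05, and the dynein 2 genes DYNC2H1 by -1.94 and DYNC2LI1 by -1.48. Among myosins, MYO16 differed by 3.17, MYO9A by 1.81 and MYO18A by 1.46, while MYO5C differed by -2.90, MYO6 by -1.55 and MYO10 by -1.12. KIF25 differed by -1.53. MYO6, MYO10, KIF25 and DYNC1LI2 also lost their calls on leaving out single arrays. For 5 of the 26, KIF18A, KIF21B, KIF25, MYO16 and MYO18A, at least 1 of the 4 groups had no array above background, so their values are fitted against background and give no size.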

How the results depend on the processing

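Of 125 calls of motor genes in the comparisons, 36 lost the threshold on leaving out at least 1 array, 32 with an offset of 50, 30 with arrays scaled to a common median of all probes and 44 with the authors' processed values. With the all-probe median 2 calls reversed, both at day 7: KIF2C became 0.30 and KIFC1 0.54. At day 15, 17 of 28 calls held under every alternative that tested them. At day 7 it was 1 of 9 (KIF21A), at day 9 1 of 7 (KIF21B), and in LSB from day 3 to day 15 0 of 7. The cause was not tested. KIF21B entered the test through LSB3i groups where it was high. With the offset of 50, the count of calls was 4 at day 7 (9 in the report), 2 at day 9 (7) and 4 in LSB from day 3 to 15 (7). With the all-probe median it was 1 at day 5 (0), 37 at day 7 and 12 in LSB. With the processed values it was 2, 1 and 1, and with the day 7 groups fitted alone 3. Leaving out each array gave 7 to 13 calls at day 7, 4 to 6 at day 9, 5 to 9 in LSB and 26 to 28 at day 15.

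The axonal minus mitotic level difference at day 15, 3.24, was 2.80 with the offset of 50 and 2.53 with the processed values. The means behind these differences include KIF21B and KIF18A, at background in some groups, so the differences give no exact size. From day 3 to 15 in LSB3i, 3.41 became 2.98, 3.12 with the mean of a gene's probes, and 2.72 with the processed values, and from day 9 to 15, 2.59 became 2.09 with the processed values. For the difference of changes, 3.33 became 2.86 with the offset of 50, 3.10 with either median scaling and 2.59 with the processed values. With the letter as a replicate block the count at day 15 was 28, as without it, and 1 call was lost, MYO6 from day 9 to 15, where 11 in place of 12 genes fell. In 2 of 55 pairs of groups every same-letter correlation was over 0.1. Signal near background limits 14 genes detected in 1 to 4 groups.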
